A study of Mus musculus with 6 samples.

Results

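Red cell membrane skeleton and surface antigen genes were examined in sorted mouse bone marrow progenitors as a set of 10 genes, out of 19661 genes with a single symbol on the array: Xk, Kel, Add2, Tmod1, Gypc, Sptb, Ank1, Slc4a1, Epb42 and Rhag. They were chosen by name, as parts of the spectrin, adducin, ankyrin, band 3 and blood group complexes, with earlier results of these data known. A gene with several probe sets was represented by the brightest over all 6 arrays. Mice with a knock-in on both copies of Fog1 (Fog1ki/ki, 3 arrays) were set against mice with wild-type Fog1 (Fog1+/+, 3 arrays), all of strain B6.129, with no treatment and no age stated. Megakaryocyte-erythroid progenitors were taken from bone marrow by flow cytometry as Kit-positive cells without lineage markers, Sca1 or CD34 and with low FcγRII/III. The labels call the arrays biological replicates and do not give the number of animals behind each, so the p-values below measure the spread between these samples. The labels do not state what the knock-in alters. From general knowledge of the study, it removes the contact of FOG1 with the NuRD chromatin complex, and the question here is whether red cell membrane genes change with it.

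The mature red cell is held in shape by a spectrin network under its membrane. Spectrin tetramers are tied to the membrane through ankyrin and band 3, and at their ends through junctions of short actin filaments that hold protein 4.1, adducin, tropomodulin and glycophorin C. Many of these genes are textbook targets of GATA1, the transcription factor that FOG1 binds, and of KLF1, and their proteins build up mainly after the progenitor stage sampled here. Several carry human blood group antigens, and inherited faults in the human genes for spectrin, ankyrin, band 3 and protein 4.2 cause spherocytosis.

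The DNA before the start of these genes is shown first, because GATA1 and KLF1 read short letter runs there. Windows from RefSeq on GRCm38.p6 were used for 7 of the 10 genes. Ank1 and Slc4a1 had none, and Gypc was left out by plan, as were all sequences from its chromosome, 18. Shown are the 250 bases upstream of the annotated start of the only gene that passed the test, Xk (chrX:9272534-9272783, plus strand), of the 3 with the next smallest p-values among those with a window, Add2 (chr6:86028431-86028680, plus strand), Tmod1 (chr4:46038972-46039221, plus strand) and Rhag (chr17:40810899-40811148, plus strand), and of Kel (chr6:41704326-41704575, minus strand), whose protein is bound to that of Xk. Capitals mark GATA letters (AGATAA or TGATAA) and CACCC-box letters (CCACACCC, CCACGCCC, CCCCACCC or CCCCGCCC), searched on both strands, and hits of the letters may overlap.
Xk: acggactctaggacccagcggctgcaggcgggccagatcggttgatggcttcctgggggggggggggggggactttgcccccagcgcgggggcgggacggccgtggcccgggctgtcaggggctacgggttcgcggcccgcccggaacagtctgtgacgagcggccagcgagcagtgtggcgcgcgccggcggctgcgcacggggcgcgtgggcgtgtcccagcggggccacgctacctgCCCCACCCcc
Add2: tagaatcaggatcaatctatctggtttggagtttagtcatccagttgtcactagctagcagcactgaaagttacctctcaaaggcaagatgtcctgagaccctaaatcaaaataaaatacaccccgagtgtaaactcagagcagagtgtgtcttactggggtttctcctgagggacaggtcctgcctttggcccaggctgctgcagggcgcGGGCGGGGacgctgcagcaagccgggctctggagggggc
Tmod1: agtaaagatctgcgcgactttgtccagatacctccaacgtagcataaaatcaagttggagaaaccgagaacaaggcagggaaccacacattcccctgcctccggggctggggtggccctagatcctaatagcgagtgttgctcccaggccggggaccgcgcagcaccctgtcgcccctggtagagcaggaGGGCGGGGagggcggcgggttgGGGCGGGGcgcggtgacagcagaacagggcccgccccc
Rhag: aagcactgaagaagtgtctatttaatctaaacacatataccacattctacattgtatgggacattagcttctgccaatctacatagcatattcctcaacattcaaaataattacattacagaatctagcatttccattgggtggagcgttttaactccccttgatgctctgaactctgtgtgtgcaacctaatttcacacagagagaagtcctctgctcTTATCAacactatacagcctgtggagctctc
Kel: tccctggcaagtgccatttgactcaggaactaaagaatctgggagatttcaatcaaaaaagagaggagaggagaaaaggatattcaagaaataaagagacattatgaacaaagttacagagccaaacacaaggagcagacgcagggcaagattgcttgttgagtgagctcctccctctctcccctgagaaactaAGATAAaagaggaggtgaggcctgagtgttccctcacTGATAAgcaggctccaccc

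The GATA letters stood in the windows of Kel (2 hits), Rhag (1) and Epb42 (1), that is in 3 of 7, against 16.6% of the 32851 windows of the same length in the table. The CACCC-box letters stood in the windows of Xk, Add2, Tmod1 and Sptb, 4 of 7, against 27.4% of all windows. The hit in Xk was CCCCACCC. Those in Add2 and Tmod1 were CCCCGCCC on the other strand, a run that does not itself hold CACCC. No window held both GATA letters and a CACCC-box run of those searched. The bare CACCC also stands unmarked in the windows of Kel and Add2 and, on the other strand, of Rhag and Tmod1. The split between windows therefore holds only for the runs searched. Xk and Add2 were the lowest of the 10 genes in Fog1ki/ki relative to Fog1+/+. Their windows held CACCC-box letters once each, in different runs, and no GATA letters. The Xk window was 77.2% G and C and the Add2 window 53.2%, against a median of 52.4% over all windows. These are matches of letters in a short stretch, and binding at them was not measured here.

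The median signal of an array was 6.02 to 6.15 (log2) and the lower quartile 4.81 to 4.92. All 10 genes had means above those quartiles. Replicate 3 of each genotype stood apart in sex-linked genes, with Eif2s3y at 3.46 in Fog1ki/ki and 3.21 in Fog1+/+ where the other arrays had at least 9.29, and Fog1ki/ki replicate 2 had high Xist (9.13) together with high Eif2s3y (9.44). The 15 measured erythroid markers (among them Klf1, Epor, Car1 and Hemgn) were all above the lower quartiles. So were all 11 measured megakaryocyte and platelet markers, so this mark cannot identify the cell type. None of the erythroid markers is among the 10 genes, but 3 (Rhd, Tfrc and Car2) are also in the wider membrane list used below. The log2 difference of Zfpm1, which encodes FOG1, was 0.05 (limma adjusted p = 0.948), that of Gata1 was -0.29 (adjusted p = 0.435) and that of Klf1 was -0.03 (adjusted p = 0.958), so none of these regulators passed.

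Of the 10 genes, Xk fell in Fog1ki/ki and the other 9 did not pass limma's test at a Benjamini-Hochberg adjusted p under 0.05 over all genes. Across all genes 0.397% were called lower and 0.773% in either direction. Add2 lay next, with a log2 difference of -0.49 and an adjusted p of 0.0592. At an unadjusted p under 0.05, 2 of the 10 were lower (Xk and Add2) and 1 higher (Tmod1), where 9.57% of all genes were past that mark in either direction. The genotypes did not overlap in 4 of the 10, against 14.8% of all genes. Every Fog1ki/ki array was lower in Xk, Add2 and Ank1 (6.53% of all genes) and higher in Tmod1 (8.31% of all genes). Because the 10 were chosen with earlier results known, these shares are no evidence about red cell membrane genes as a class. The median log2 difference of the 10 was -0.08 and that of all genes 0.02. The sample was a bulk of sorted cells, so fewer cells of a type and less RNA per cell cannot be told apart.

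**Figure D1:**
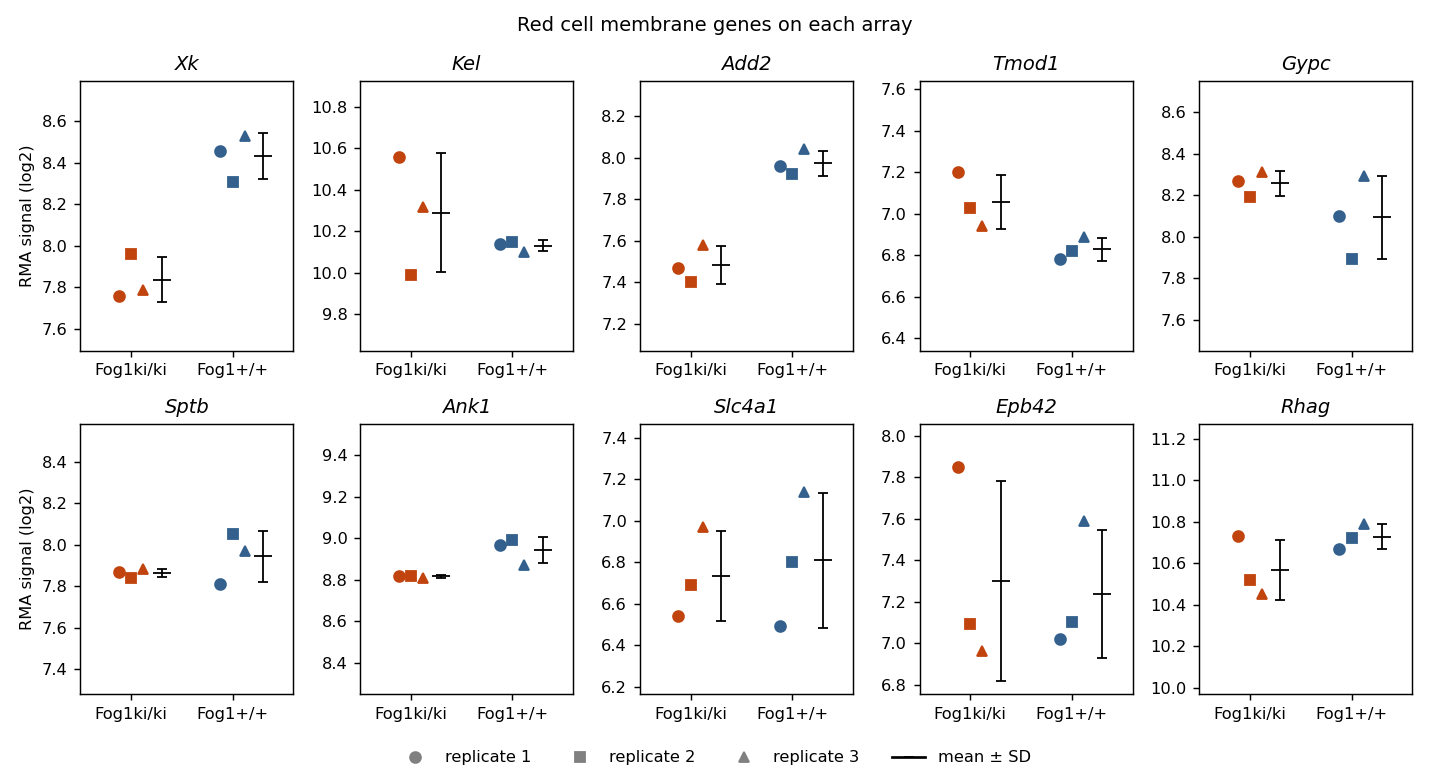
RMA signal (log2) of the 10 genes on each array, with Fog1ki/ki left and Fog1+/+ right. Each symbol is 1 array, the cross and bar are mean ± SD (n = 3), and every panel spans the same height in log2 units. The Fog1ki/ki arrays of Xk (7.76 to 7.96) and Add2 (7.40 to 7.58) lie wholly below the Fog1+/+ arrays (8.31 to 8.53 and 7.92 to 8.04), while Epb42 and Slc4a1 spread widely within each genotype.

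Xk and Kel encode the partners of the Kell complex. Xk spans the membrane many times, carries the Kx antigen and acts with VPS13A in moving lipids between membrane leaflets, and Kel is a zinc endopeptidase that carries the Kell antigens and is joined to XK by a disulphide bond. Xk measured 7.76, 7.96 and 7.79 in the Fog1ki/ki arrays, against 8.46, 8.31 and 8.53 in the Fog1+/+ arrays. The highest Fog1ki/ki array lay 0.35 below the lowest Fog1+/+ array. The means were 7.84 ± 0.11 in Fog1ki/ki and 8.43 ± 0.11 in Fog1+/+ (SD, n = 3 each), a log2 difference of -0.60 (95% interval -0.83 to -0.37, limma adjusted p = 0.0389), which makes Xk 1.51-fold lower and the gene with rank 131 by p among 19661.

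The size of the Xk difference was steadier than its call. Its log2 difference ran from -0.66 to -0.53 in 16 alternative settings, and it passed in 5 of them. The call was lost when any 1 of the 6 arrays was left out (limma adjusted p from 0.0742 to 0.202). Xk lies on the X chromosome, and the arrays differ in sex-linked genes. Xk differed by -0.53 (log2) among the 4 arrays with high Y-linked values and by -0.74 between the 2 arrays with low ones. Of those 4, Fog1ki/ki replicate 2 also had high Xist (9.13) and the highest Fog1ki/ki value of Xk (7.96). The split therefore may not separate the sexes. With the arrays of low Y-linked values as a term in the fit the limma adjusted p was 0.0681, and without them it was 0.424. Of the 10 tested genes nearest to Xk on its chromosome, 5 on each side, none passed limma's test (0 of 10, with 0 lower and 2 higher at an unadjusted p under 0.05, against 4.58% and 4.99% of all genes), and their log2 differences ran from -0.25 to 0.74, the highest being Sytl5.

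Kel did not pass the test. It measured 10.56, 9.99 and 10.32 in Fog1ki/ki, against 10.14, 10.15 and 10.10 in Fog1+/+. The Fog1ki/ki arrays lay on both sides of the narrow Fog1+/+ range and spread over 0.57, where the Fog1+/+ arrays spread over 0.05. The log2 difference was 0.16 (95% interval -0.15 to 0.47, limma adjusted p = 0.789), an interval that leaves out a fall of the size measured for Xk.

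Add2, Tmod1 and Gypc belong to the junction where spectrin meets actin. Add2 encodes beta-adducin, which caps the fast-growing end of actin filaments and recruits spectrin to them. It measured 7.47, 7.40 and 7.58 in Fog1ki/ki, against 7.96, 7.92 and 8.04 in Fog1+/+. The genotypes were 0.34 apart at their nearest arrays. The means were 7.48 ± 0.09 in Fog1ki/ki and 7.97 ± 0.06 in Fog1+/+ (SD, n = 3 each), with a log2 difference of -0.49 (95% interval -0.70 to -0.28, limma adjusted p = 0.0592). In 16 alternative settings that difference stayed between -0.54 and -0.45, and it passed in 1, with array weights (adjusted p = 0.0441). It was -0.51 among the 4 arrays with high Y-linked values and -0.46 between the 2 with low ones.

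**Figure D2:**
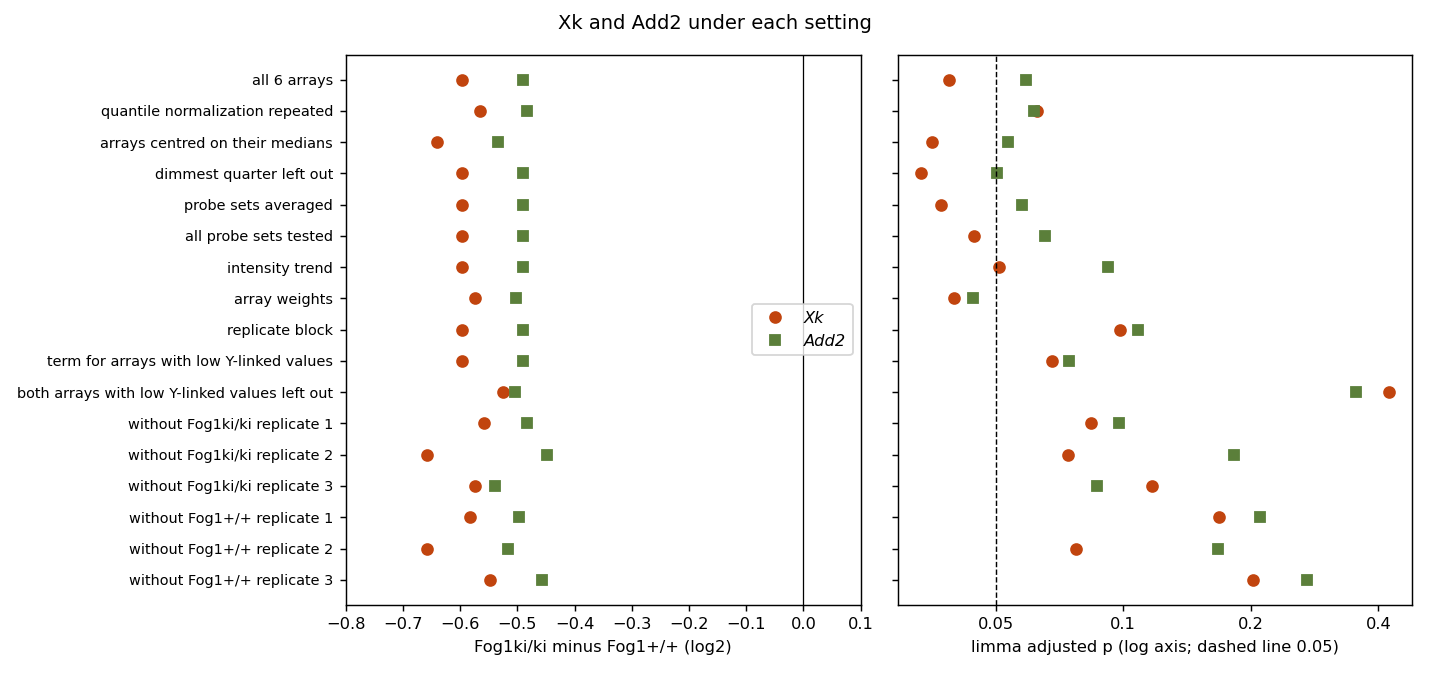
Log2 difference between Fog1ki/ki and Fog1+/+ (left) and limma adjusted p (right, log axis, dashed line at 0.05) of Xk (circles) and Add2 (squares), with all 6 arrays and in 16 alternative settings. The differences stay between -0.66 and -0.45, while the adjusted p of Xk passes 0.05 in 5 alternatives and that of Add2 in 1.

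Tmod1, which caps the slow-growing end of the actin filaments, measured 7.20, 7.03 and 6.94 in Fog1ki/ki, against 6.78, 6.82 and 6.89 in Fog1+/+. Every Fog1ki/ki array was higher, the nearest by 0.05. The log2 difference was 0.23 (95% interval 0.0014 to 0.45, limma adjusted p = 0.517). The probe set behind these values has no RefSeq mRNA among its annotated sequences, unlike those of the other 9 genes. A second, dimmer probe set that does have them ranged from 6.19 to 6.23 in Fog1ki/ki and from 6.07 to 6.25 in Fog1+/+, with a log2 difference of 0.06 (limma adjusted p = 0.895), so the non-overlap was seen in only 1 of the 2 probe sets.

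Gypc, the glycophorin that anchors protein 4.1 and carries the Gerbich antigens in humans, measured 8.27, 8.19 and 8.31 in Fog1ki/ki, against 8.10, 7.89 and 8.29 in Fog1+/+. The genotypes overlapped through Fog1+/+ replicate 3. The log2 difference was 0.16 (95% interval -0.10 to 0.43, limma adjusted p = 0.722).

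Sptb, the erythroid beta-spectrin, was nearly level on the Fog1ki/ki arrays, at 7.87, 7.84 and 7.88, against 7.81, 8.05 and 7.97 in Fog1+/+. The 3 Fog1ki/ki values fell inside the Fog1+/+ range. The log2 difference was -0.08 (95% interval -0.30 to 0.14, limma adjusted p = 0.857).

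Ank1, Slc4a1, Epb42 and Rhag form the ankyrin complex. Ank1, the adaptor between spectrin and band 3, measured 8.82, 8.82 and 8.81 in Fog1ki/ki, against 8.97, 8.99 and 8.87 in Fog1+/+. The groups did not overlap, with 0.05 between their nearest arrays, but the log2 difference of -0.13 did not pass (95% interval -0.32 to 0.07, limma adjusted p = 0.708). With quantile normalization repeated it was -0.05. Ank1 lies on chromosome 8, as does Zfpm1, and none of its 10 nearest tested genes passed limma's test (0 of 10, and 0 at an unadjusted p under 0.05).

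Slc4a1 encodes band 3, the chloride and bicarbonate exchanger and the most abundant protein of the red cell membrane. It measured 6.54, 6.69 and 6.97 in Fog1ki/ki, against 6.49, 6.80 and 7.14 in Fog1+/+. The range within Fog1ki/ki (0.43) and within Fog1+/+ (0.65) exceeded the difference between them. That difference was -0.08 on the log2 scale (95% interval -0.47 to 0.32, limma adjusted p = 0.937), and its sign turned without Fog1ki/ki replicate 1 (0.02) or Fog1+/+ replicate 3 (0.088).

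Epb42 encodes protein 4.2, which fastens band 3 to ankyrin. It had the widest spread of the 10 among the Fog1ki/ki arrays (SD 0.48) and measured 7.85, 7.09 and 6.96 in Fog1ki/ki, against 7.02, 7.10 and 7.59 in Fog1+/+. A single array of each genotype stood high, replicate 1 in Fog1ki/ki and replicate 3 in Fog1+/+. The log2 difference was 0.06 (95% interval -0.47 to 0.60, limma adjusted p = 0.964), and without Fog1ki/ki replicate 1 it was -0.21. The 4 arrays with high Y-linked values gave 0.41 and the 2 with low ones -0.63.

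Rhag, the ammonia or carbon dioxide channel that carries the Rh proteins to the surface, measured 10.73, 10.52 and 10.45 in Fog1ki/ki, against 10.67, 10.72 and 10.79 in Fog1+/+. Replicates 2 and 3 of Fog1ki/ki lay below all Fog1+/+ arrays and replicate 1 inside their range. The log2 difference was -0.16 (95% interval -0.39 to 0.07, limma adjusted p = 0.690). Among the Fog1ki/ki arrays, replicate 1 was the highest in 5 of the 10 genes and the lowest in 2, and among the Fog1+/+ arrays replicate 3 was the highest in 7 and the lowest in 2.

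For the wider membrane, 45 genes of the same complexes and of other antigens and transporters were listed, 10 of them the genes above. Of the 42 measured, limma's test called 1 lower (Xk), 0 higher and 41 neither, against 0.397% of all genes lower and 0.376% higher. Before adjustment, 6 were lower and 3 higher at p under 0.05. That is 21.4% of the 42, against 9.57% of all genes in either direction (4.58% lower and 4.99% higher). Xk, Add2 and Tmod1 of the 10 are among them, and the list was drawn up with earlier results of these data known. The median log2 difference of the 42 was -0.05. Of the 32 that are not among the 10, none passed (0 in limma, 4 lower and 2 higher at an unadjusted p under 0.05), and the genotypes did not overlap in 8, against 14.8% of all genes.

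**Figure D3:**
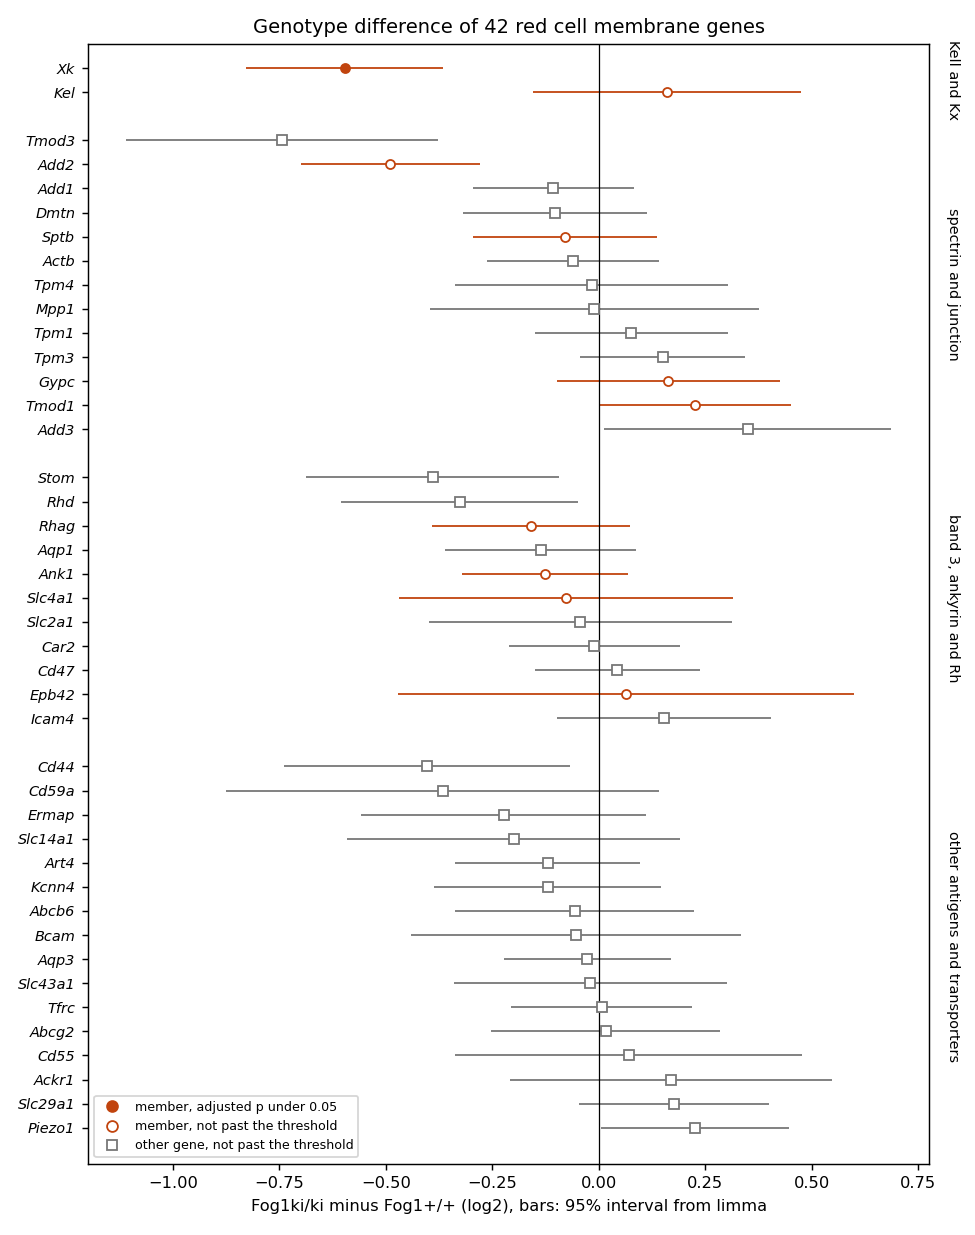
Log2 difference between Fog1ki/ki and Fog1+/+ with its 95% interval from limma for 42 red cell membrane genes, grouped by complex. Circles are the 10 genes described singly and squares the other 32, and the filled circle marks an adjusted p under 0.05. Xk alone is filled, at -0.60, while Tmod3 (-0.74) has the lowest value and a wide interval.

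At the spectrin and actin junction, 13 genes were measured and none passed (0 in limma, 2 lower and 2 higher at an unadjusted p under 0.05, where 4.58% of all genes were lower and 4.99% higher). Tmod3, the tropomodulin that most cells use, had the lowest log2 difference of all 42 genes, with 8.49, 8.69 and 8.35 in Fog1ki/ki, against 8.93, 9.56 and 9.27 in Fog1+/+. The groups did not overlap, and the log2 difference was -0.74 (95% interval -1.11 to -0.38, limma adjusted p = 0.107). Among the adducins, the widely expressed Add1 stood at -0.11 on the log2 scale (limma adjusted p = 0.753) and the third subunit, Add3, at 0.35 (limma adjusted p = 0.499). Add3 measured 8.22, 7.69 and 7.82 in Fog1ki/ki, against 7.62, 7.38 and 7.68 in Fog1+/+, where every Fog1ki/ki array was higher, the nearest by 0.01.

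Among the 11 measured genes of the band 3 and ankyrin complex none passed (0 in limma, 2 lower and 0 higher at an unadjusted p under 0.05, against 4.58% of all genes lower and 4.99% higher). The lower ones were Stom, the lipid raft protein stomatin, at -0.39 on the log2 scale (limma adjusted p = 0.342), and Rhd, the mouse Rh antigen protein and partner of Rhag, at -0.33 (limma adjusted p = 0.422). Of 16 other antigens and transporters none passed either (0 in limma, 1 lower and 1 higher at an unadjusted p under 0.05). These were Cd44, the hyaluronan receptor that carries the Indian antigens in humans, at -0.40 (limma adjusted p = 0.403), and Piezo1, the stretch-gated channel that sets red cell volume, at 0.23 (limma adjusted p = 0.507).

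Partner genes were also set against each other on the same array, which removes whatever shifts a whole array. The offset between probe sets of different genes has no meaning by itself, so only its change between genotypes counts. The 5 pairs were chosen after the values were seen. The exact permutation test run on them cannot give a p under 0.1 with 3 arrays per genotype. No pair could therefore pass it, and nothing is drawn from it. Xk, Add2, Tmod3, Add1, Add3, Tmod1 and Rhd, which had no overlap between genotypes by themselves, each stand in at least 1 of the pairs. The log2 signal of Kel minus that of Xk was 2.80, 2.03 and 2.53 in Fog1ki/ki, against 1.68, 1.84 and 1.57 in Fog1+/+. The groups did not overlap, and the means differed by 0.76. Add3 minus Add2 was 0.75, 0.29 and 0.24 in Fog1ki/ki, against -0.34, -0.54 and -0.36 in Fog1+/+, a difference of 0.84. These groups did not overlap either.

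Add1 minus Add2 differed by 0.38 between genotypes, with 1.70 to 1.92 in Fog1ki/ki and 1.39 to 1.48 in Fog1+/+. Tmod1 minus Tmod3 differed by 0.97, with -1.66 to -1.29 in Fog1ki/ki and -2.74 to -2.15 in Fog1+/+. These 4 pairs had no overlap between genotypes, and each holds a gene that had none alone. The share of such pairs among gene pairs in general was not computed. Rhag minus Rhd differed by 0.17 and overlapped, with 1.35 to 1.5 in Fog1ki/ki and 1.11 to 1.44 in Fog1+/+, although Rhd alone did not overlap.

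**Figure D4:**
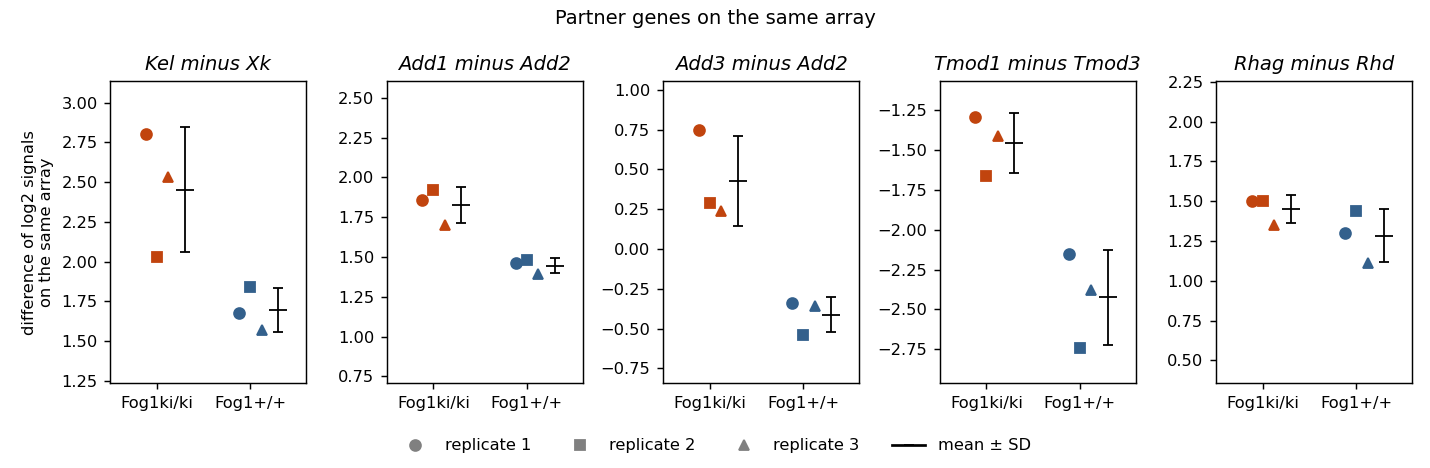
Difference of log2 signals of partner genes on the same array, Fog1ki/ki left and Fog1+/+ right, with mean ± SD (n = 3) beside the points and the same height in log2 units in every panel. In the first 4 pairs all Fog1ki/ki arrays lie above all Fog1+/+ arrays, and in Rhag minus Rhd they overlap.

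Genes related in sequence to the 10, but known mainly from other tissues, served as a comparison. Of 27 measured (the non-erythroid spectrins and ankyrins, protein 4.1-like genes, anion exchangers, tropomodulins, Rh glycoproteins, Xk-related genes and endopeptidases), none passed (0 in limma, 1 lower and 0 higher at an unadjusted p under 0.05, against 9.57% of all genes in either direction). Their log2 differences ran from -0.28 to 0.24, with a median of 0.02. Of the 27, 5 had means below the lower quartiles, as did 0 of the 10. RMA compresses differences of dim probe sets, so the 2 ranges are not directly comparable. Tmod4, the tropomodulin of muscle, had the smallest p (-0.28, limma adjusted p = 0.489), followed by Xkr7, a relative of Xk (0.20, limma adjusted p = 0.528). Tests of whether the red cell genes differ from their relatives as a set were not made.

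Marker lists of other cell types were summed on each array, and the sums were not tested. Sums of linear signals weigh the brightest genes most. On every array these were Car1 in the erythroid list and Kit in the mast cell list. The summed linear signal of the 15 erythroid markers was 22891 to 23761 in Fog1ki/ki and 24697 to 25139 in Fog1+/+, and 0 of the 15 passed limma's test (4 lower and 0 higher at an unadjusted p under 0.05, against 4.58% and 4.99% of all genes). Rhd is 1 of these 4 and also 1 of the 6 lower genes of the wider membrane list, so these counts are not separate readouts. The sum of 14 mast cell markers was 2069 to 2711 in Fog1ki/ki and 1767 to 1833 in Fog1+/+. Limma's test called 3 of the 14 higher (Ms4a2, Rgs13 and Gata2), 0 lower and 11 neither. Of all genes 0.376% were called higher and 0.397% lower. Before adjustment, 5 of the 14 lay higher and 1 lower at p under 0.05, against 4.99% and 4.58% of all genes. The lower one was Kit, the receptor by which the cells were sorted, with 9.72 to 10.05 in Fog1ki/ki and 10.26 to 10.3 in Fog1+/+, a difference of -0.38 in log2 units with an adjusted p of 0.233 from limma. The mast cell proteases Mcpt4 and Cpa3 and the receptor Mrgprb2 had means below the lower quartiles.

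The sum of 11 megakaryocyte and platelet markers was 1624 to 1765 in Fog1ki/ki and 1343 to 1427 in Fog1+/+. That of 8 basophil markers was 319.5 to 583.7 in Fog1ki/ki and 265.8 to 280.9 in Fog1+/+. The highest sum was that of Fog1ki/ki replicate 1, where Mcpt8 measured 7.40, against 5.50 and 5.44 in replicates 2 and 3. Of these 8 markers, 3 had means below the lower quartiles. Fcer1a is in both the basophil and the mast cell list, so the sums of these lists are not separate readouts. The sum of 11 monocyte and macrophage markers was 482.4 to 504.6 in Fog1ki/ki and 513.3 to 528.8 in Fog1+/+, and 4 of these 11 had means below the lower quartiles. Sums of 12 neutrophil and 11 lymphoid markers overlapped between genotypes. None of these 5 lists had a member past limma's test (0 in each, 3 higher for the megakaryocyte list, 2 higher for the basophil list, 1 higher for the neutrophil list and 1 lower for each of the others at an unadjusted p under 0.05, against 9.57% of all genes in either direction). The part of these marker differences in the values of Xk and Add2 was not tested.

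Among 15 regulators of red cell genes, 1 rose, 0 fell and 14 did not pass limma's test. Of all genes 0.376% were called higher and 0.397% lower. The gene that rose is also in the mast cell list above, so both lists count the same call. The riser was Gata2, which precedes GATA1 on shared sites, with a log2 difference of 1.14 (limma adjusted p = 0.0164), a call that went when Fog1+/+ replicate 1, 2 or 3 or Fog1ki/ki replicate 3 was left out (adjusted p from 0.0579 to 0.0876). In the 100 tested genes that lie nearest to the 10 membrane genes on their chromosomes, none passed (0 in limma, 4 lower and 7 higher at an unadjusted p under 0.05, against 4.58% and 4.99% of all genes).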

How the data were processed

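RNA of sorted progenitors was amplified and hybridised to 1-colour arrays, per the labels. The values deposited by the authors are on the log2 scale, as read from the values. The submitters' processing notes name RMA, which corrects background, equalises array distributions by quantiles and summarises probes; its software is not given in the sources used here. RMA compresses differences of dim probe sets, and the number of arrays limits the precision.

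Platform annotation gave 1 gene to 20777 of 25668 probe sets. The 19661 genes, each by its brightest probe set, were fitted with limma 3.58.1 in R 4.3.3 (two-sided, genotype only, no filter), with Benjamini-Hochberg adjustment, after a test on simulated data. Gene pairs were only described, since the permutation test run on them could not pass with 3 arrays per genotype. Named genes were the 10 members and, per list, those past the threshold or else the 2 with the smallest p, besides partner genes. Members and lists were chosen with earlier results of these data known.

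Deviations of equally numbered replicates correlated at 0.07, -0.01 and 0.13 across genes, and the numbers were not taken as pairs. Differently numbered replicates correlated at -0.13 to 0.06. Replicate 3 of both genotypes had low Y-linked values, and these correlations cannot exclude pairing. A fit with the replicate block is among the alternative settings.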

Additional observations from a re-analysis of the deposited data

How the results depend on the processing

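The count of 152 genes past the threshold stayed within 1.5 times under each change of scaling, filter, probe set choice, variance model and weights, with the replicate block (133) and with Y-linked level as a term (127). It fell to 24 without both arrays with low Y-linked values and to 55 at an adjusted p under 0.01, and ranged from 60 to 134 with 1 array left out (60, 83 and 60 without Fog1+/+ replicate 1, 2 and 3, and 82 without Fog1ki/ki replicate 2). The count among the 10 membrane genes, and likewise among the 42, was 1 with all arrays. It was 0 with quantile normalization repeated, an intensity trend, the replicate block, Y-linked level as a term, both such arrays left out, an adjusted p under 0.01 or any 1 array left out (0 to 0), and 2 with array weights and at an adjusted p under 0.1, when Add2 joined Xk. The replicate block gave Xk an adjusted p of 0.0981. Differences near 0 changed sign. Epb42 had -0.080 with array weights and -0.21 to 0.24 with 1 array left out, Slc4a1 -0.24 to 0.088 and Zfpm1 -0.058 to 0.16 likewise, and Klf1 0.019 with quantile normalization repeated and -0.053 to 0.0067 with 1 array left out. The cause of these changes in count or sign was not tested. Leaving arrays out also leaves fewer degrees of freedom for the test. The smallest log2 difference called among all genes was 0.50 in size, so differences as small as those of Rhag, Ank1 or Sptb could not be resolved with 3 arrays per genotype.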
